A study of Mus musculus with 4 samples.

Results

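Interferon-stimulated antiviral genes were described in ATDC5 cells, a mouse chondroprogenitor line derived from a teratocarcinoma, before and after chondrogenic differentiation. The members were a list of 37 gene symbols, without the guanylate-binding proteins. A member was measured when a probe set of the array was annotated to its symbol and to no other, and the brightest such probe set stood for the gene. This gave 34 of the 37 members among 19938 genes in all. The probe sets of Isg15 and Igtp carried the symbol of another gene as well, Ifi44 was not matched, and these 3 members are not analysed here.

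The labels gave 2 groups of 2 arrays, 1 array per sample, with the samples of each day numbered 1 and 2. Day 0 cells were kept undifferentiated in basal medium with fetal bovine serum and ascorbic acid. Day 15 cells were grown for 15 days in that medium supplemented with insulin, transferrin and selenite. Both groups were the same cell line, and no group was cultured for 15 days without the supplement, so time in culture, supplement and differentiation cannot be told apart. The labels do not say that samples of a group came from separate cultures, so the p-values reflect the variation among 4 arrays, part or all of which may be technical, and the precision is limited by how few arrays there are.

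Several measurements of the arrays bear on the members. All 9 measured chondrocyte markers were higher on both day 15 arrays than on both day 0 arrays, against 22.3% of all genes. The test described below called 6 of them higher (Col2a1, Acan, Hapln1, Col11a1, Matn1 and Col10a1), against 1.30% of all genes. Both replicate 1 arrays stood apart from both replicate 2 arrays in macrophage and leukocyte markers. The summed intensity of 21 such markers was 17330 at day 0 and 16520 at day 15 on the replicate 1 arrays, against 4185 and 5725 on the replicate 2 arrays. Of the 21 markers, 18 were higher in replicate 1 on both days, against 34.1% of all genes, and none was listed at 0. C1qb, a complement gene of macrophages, was at 11.36 and 11.11 on the log2 scale in replicate 1 against 6.09 and 5.80 in replicate 2. None of these markers passed the test, which with 1.72% of all genes called is not read as a result. The largest differences between days were −1.52 log2 for Cd74 and 1.20 log2 for Cd68. The summed intensity of 6 endothelial markers ran from 781 to 840. None of them passed, again too near that share to be read as a result (Emcn differed by 0.64 and Pecam1 by 0.17 log2). The part of such markers in the results was not tested, and differences are therefore also given within each replicate number. In these bulk samples more RNA per cell and more cells of a type cannot be told apart.

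Interferons are secreted alarm signals of virus infection. Type I interferons act through a receptor and its kinases on the transcription factor complex ISGF3, which contains STAT2 and IRF9 and binds the interferon-stimulated response element in the promoters of its target genes. The targets include sensors of viral RNA, enzymes that block viral replication, a ubiquitin-like tag with the enzymes that attach and remove it, and the machinery that loads peptides on MHC class I. Such genes can also be expressed at a basal level in cells without infection.

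The promoters of 4 members are shown because 3 of them belong to genes that passed the test given below, with and without the core of that element, and 1 carries the core in a gene that did not pass. The core searched for was GAAA, any 2 bases and GAAA again, or on the opposite strand TTTC, any 2 bases and TTTC, and overlapping matches were each counted. The sequences are those of RefSeq on build GRCm38.p6, from 250 bases before to 50 bases after the annotated start, 5′ to 3′ on the gene's own strand, with matches in capitals. Ifit1 lies at chr19:34640639-34640938 on the plus strand, Ifit3 at chr19:34583279-34583578 on the plus strand, Oasl2 at chr5:114896684-114896983 on the plus strand and Rsad2 at chr12:26456403-26456702 on the minus strand.
Ifit1: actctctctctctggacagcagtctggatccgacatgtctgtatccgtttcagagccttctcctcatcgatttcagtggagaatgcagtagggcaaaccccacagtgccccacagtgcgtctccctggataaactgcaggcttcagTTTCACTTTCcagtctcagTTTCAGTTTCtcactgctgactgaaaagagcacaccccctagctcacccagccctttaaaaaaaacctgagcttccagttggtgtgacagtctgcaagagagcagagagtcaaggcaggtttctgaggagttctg
Ifit3: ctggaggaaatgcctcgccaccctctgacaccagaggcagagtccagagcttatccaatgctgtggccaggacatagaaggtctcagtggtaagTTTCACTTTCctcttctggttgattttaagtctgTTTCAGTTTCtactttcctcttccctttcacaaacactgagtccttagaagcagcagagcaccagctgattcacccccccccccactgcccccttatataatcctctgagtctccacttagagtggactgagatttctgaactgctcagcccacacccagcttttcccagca
Oasl2: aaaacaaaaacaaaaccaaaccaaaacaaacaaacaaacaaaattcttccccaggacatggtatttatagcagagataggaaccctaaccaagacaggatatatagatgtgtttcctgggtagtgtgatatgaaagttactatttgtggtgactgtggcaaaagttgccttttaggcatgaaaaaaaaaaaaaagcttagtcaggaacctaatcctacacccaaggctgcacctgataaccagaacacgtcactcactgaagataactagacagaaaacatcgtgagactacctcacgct
Rsad2: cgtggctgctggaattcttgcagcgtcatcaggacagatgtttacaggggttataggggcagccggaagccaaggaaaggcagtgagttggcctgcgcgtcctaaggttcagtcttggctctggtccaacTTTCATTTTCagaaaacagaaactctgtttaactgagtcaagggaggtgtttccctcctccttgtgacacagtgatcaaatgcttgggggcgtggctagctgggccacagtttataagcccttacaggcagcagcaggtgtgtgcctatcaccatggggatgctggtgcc

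Ifit1 and Ifit3 held the same pair of matches in the same order, TTTCACTTTC and then TTTCAGTTTC. Their first bases lay 104 and 85 bases before the start in Ifit1 and 156 and 122 bases before it in Ifit3. Rsad2 held 1 match, TTTCATTTTC, 120 bases before the start, and these letters were not in the window of Oasl2. Windows were matched by symbol for 30 of the 37 members (Dhx58, Mx1, Mx2, Oas2, Usp18, Parp9 and Parp14 were not matched), and 13 of the 30 held a match (43.3%), among them Isg15 with 3 overlapping matches. Among all 27025 genes with a window, 1079 held a match (3.99%). By window these shares were 13 of 35 (37.1%) and 1131 of 32851 (3.44%). Of the measured members with a window, 2 of the 3 that passed the test below and 9 of the 24 that did not held a match. A match is a stretch of letters and was not taken as a bound site.

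Day 15 was compared with day 0 to ask how the expression profile changes over chondrogenesis, with limma on log2(intensity + 1) after quantile normalization and Benjamini-Hochberg adjustment over all genes. Among the interferon-stimulated genes, Usp18, Ifit3, Oasl2 and Ifit1 rose at day 15 by 3.22-fold to 3.78-fold. These 4 were 11.8% of the 34 measured members, whereas 1.72% of all genes tested were called and 1.30% were called higher. This fit did not pair the arrays by replicate number. With a replicate block, Dhx58, Ifih1, Irf7 and Rsad2 were called as well, making 8 members and 628 of all 19938 genes. None of the members was called lower, against 0.411% of all genes, which is too near to be read as a result about the members. The difference was below 0 for 7 of the 34. With no adjustment, 12 members were higher (35.3%, against 7.38% of all genes) and Samhd1 was lower (2.94%, against 4.78%) at limma p below 0.05. The median difference of the 34 members was 0.29 log2 and that of all genes 0.02 log2. The members and the other lists were chosen with earlier results of these data known. Their shares and medians, here and below, therefore describe the lists and are not a test of them.

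**Figure D1:**
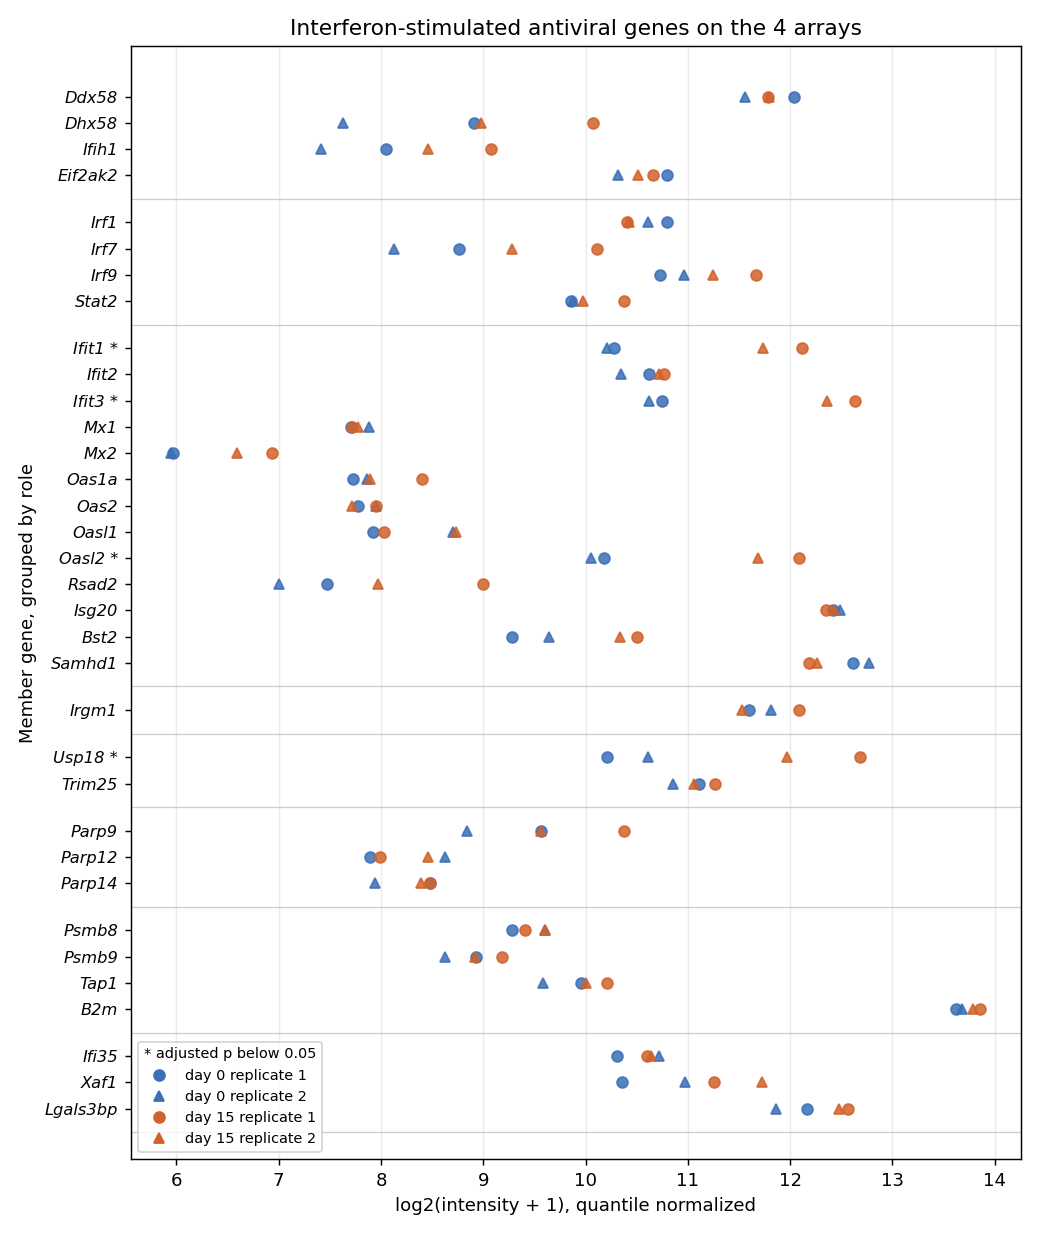
Log2(intensity + 1) after quantile normalization (x axis) of each of the 34 measured members (y axis, grouped by role) on each array, with day 0 in blue, day 15 in orange, circles for replicate 1 and triangles for replicate 2. For the starred genes Ifit1, Ifit3, Oasl2 and Usp18, both day 15 points lie more than 1 log2 to the right of both day 0 points, while the points of Mx1, Oas2 and Isg20 lie on top of each other. Levels of different genes are not comparable along the axis.

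Without regard to the size of the difference, both day 15 arrays lay above both day 0 arrays for 19 of the 34 members (55.9%), against 22.3% of all genes. Both lay below for 2 members, Samhd1 and Irf1 (5.88%), against 17.8% of all genes. The arrays of the days overlapped for the other 13.

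Among the direct antiviral effectors 3 of 13 were called higher, against 1.30% of all genes. None of them was called lower, against 0.411% of all genes, which is too near to be read as a result. The IFIT proteins bind viral RNA through tetratricopeptide repeats and hold back its translation. Ifit3 (probe set 10462618) had a log2 intensity of 10.75 in replicate 1 and 10.62 in replicate 2 at day 0, and of 12.64 and 12.36 in the same order at day 15. The day 15 arrays were both high and lay close together, with no overlap. The means were 10.68 ± 0.09 and 12.50 ± 0.19 (SD, n = 2 arrays per group), a 3.52-fold rise (1.82 ± 0.18 log2, SE; limma adjusted p = 0.0125). Ifit1 (probe set 10462623) was at 10.28 and 10.21 at day 0 and at 12.12 and 11.74 at day 15. Both day 15 arrays were again above both day 0 arrays, and Ifit1 rose 3.22-fold (1.69 ± 0.20 log2, SE; limma adjusted p = 0.02). Ifit2 (probe set 10462613), the third member of the family, was at 10.62 and 10.35 at day 0 and at 10.76 and 10.72 at day 15. The days did not overlap here either, but the gap was small, and Ifit2 differed by 0.26 ± 0.18 log2 (SE), short of the threshold (limma adjusted p = 0.714). Its 95% interval ran from −0.18 to 0.70 log2, against 1.20 to 2.17 for Ifit1 and 1.37 to 2.27 for Ifit3. Ifit3 has a near-identical copy, Ifit3b, and whether their probe sets tell the copies apart was not examined.

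The oligoadenylate synthetases make a short nucleotide that switches on an RNA-cutting enzyme, and the OAS-like proteins share their fold. Oasl2 (probe set 10524621) was at 10.18 and 10.05 at day 0 and at 12.09 and 11.69 at day 15. Both day 15 arrays were high, and Oasl2 rose 3.41-fold (1.77 ± 0.20 log2, SE; limma adjusted p = 0.019). The other 3 genes of this family on the member list did not pass the limma test (adjusted p = 0.67 to 0.99), and neither did Oas1b, Oas1c and Oas3 among the further interferon-stimulated genes (0.48 to 0.672). Oasl1, the neighbouring OAS-like gene, was at 7.92 and 8.70 at day 0 and at 8.03 and 8.73 at day 15. Its arrays were ordered by replicate number, with replicate 2 high on both days, and the difference was 0.07 ± 0.35 log2 (SE). Oas2 was at 7.78 and 7.95 at day 0 and at 7.95 and 7.72 at day 15, so the days overlapped. Oas1a was at 7.73 and 7.86 at day 0 and at 8.40 and 7.89 at day 15, where replicate 1 was the only array clearly above the others. Oas1a, Oas2 and Oasl1 were under the median level of all genes, and how far they stand above background is unknown.

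Rsad2, which encodes viperin, an enzyme that makes a chain-terminating nucleotide, had a difference of 1.25 ± 0.37 log2 (SE) that did not pass (limma adjusted p = 0.238). It was at 7.47 and 7.002 at day 0 and at 8.998 and 7.97 at day 15. The days did not overlap, and the day 15 arrays differed from each other by 1.02 log2. Bst2, which encodes tetherin, a protein that holds budding virus at the cell surface, was at 9.28 and 9.64 at day 0 and at 10.50 and 10.34 at day 15. The day 15 arrays were the high ones, with a difference of 0.96 ± 0.20 log2 (SE) and the lowest adjusted p among the members that did not pass (limma, 0.108). The Mx proteins are dynamin-like GTPases that trap viral nucleoproteins. Mx2 was at 5.96 and 5.95 at day 0 and at 6.93 and 6.59 at day 15, a difference of 0.81 ± 0.19 log2 (SE; limma adjusted p = 0.151). For Mx1, the array values overlapped at 7.71 and 7.88 at day 0 and 7.72 and 7.77 at day 15. Its difference was −0.05 log2, with a 95% interval of −0.46 to 0.36. Rsad2, Mx1 and Mx2 were under the median level of all genes, and how far they stand above background is unknown.

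Samhd1 and Isg20 were lower at day 15 in both replicate numbers. Samhd1, which removes the nucleotides that reverse transcription needs, was at 12.62 and 12.77 at day 0 and at 12.18 and 12.27 at day 15. The days did not overlap, and the value of −0.47 ± 0.17 log2 (SE) was the lowest of all measured members but missed the threshold (limma adjusted p = 0.338). Isg20, an exonuclease that degrades RNA, was between 12.36 and 12.49 on all 4 arrays, so the days overlapped.

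In the ISG15 system, which tags proteins with a ubiquitin-like molecule, 1 of the 2 measured members was called higher. Of all genes 1.30% were called higher, and 2 genes are too few to describe the system. Usp18 (probe set 10541307) encodes the protease that removes ISG15 and also shuts the interferon receptor down. It was at 10.21 and 10.61 at day 0 and at 12.68 and 11.97 at day 15. The day 15 arrays were both high but spread by 0.71 log2, and the 3.78-fold rise was the largest among the members (1.92 ± 0.29 log2, SE; limma adjusted p = 0.0433). Trim25, a ubiquitin ligase that activates the sensor RIG-I, was at 11.11 and 10.86 at day 0 and at 11.27 and 11.06 at day 15. These values overlapped (limma adjusted p = 0.853).

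**Figure D2:**
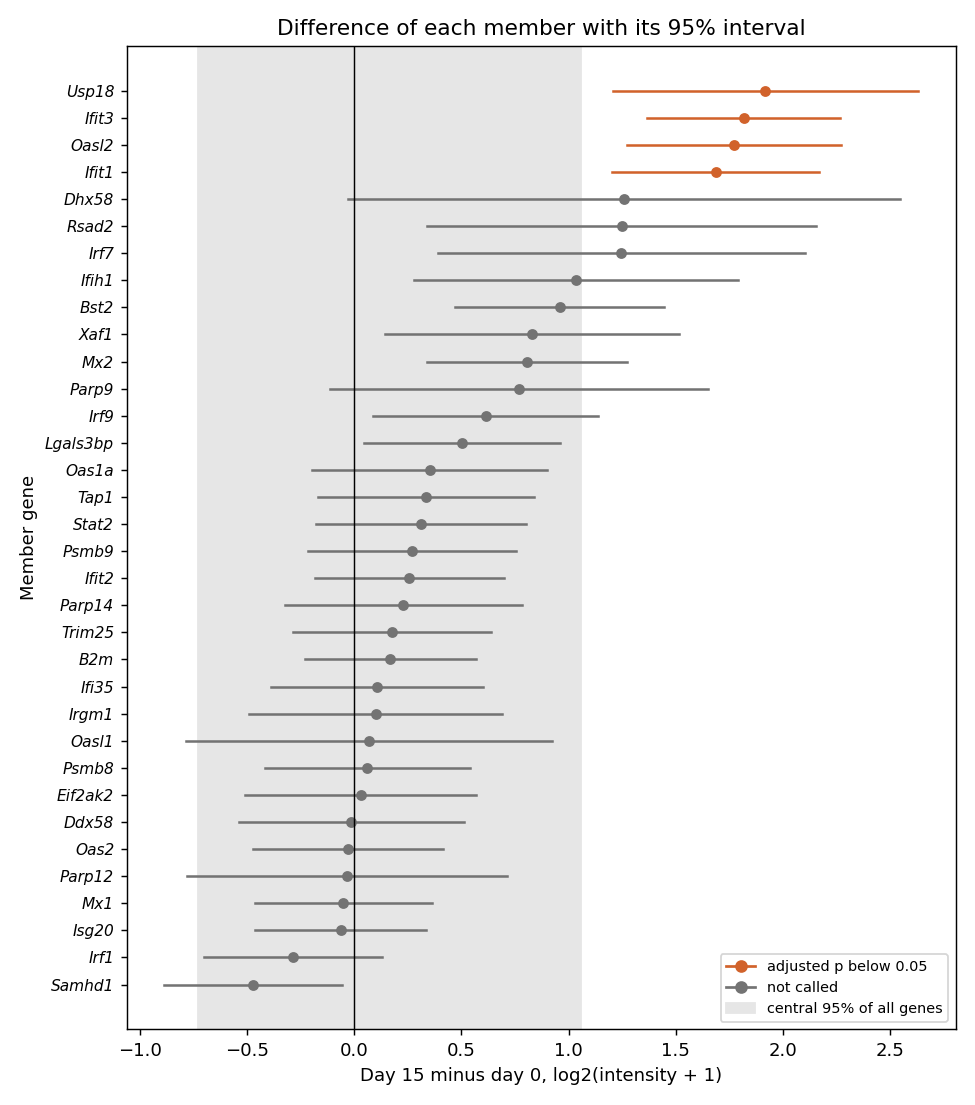
Day 15 minus day 0 in log2(intensity + 1) (x axis) for each measured member (y axis), with limma's 95% interval as a line, orange where the adjusted p was below 0.05 and grey where it was not. The grey band is the central 95% of all 19938 genes, from −0.73 to 1.06 log2. The intervals of Usp18, Ifit3, Oasl2 and Ifit1 begin at 1.20 to 1.37 log2, and that of Samhd1 lies below 0.

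None of the 4 nucleic acid sensors passed the limma test without a replicate block, and 1 had an unadjusted p below 0.05. Over all 19938 genes, 342 were called and 2425 had an unadjusted limma p below 0.05. Ifih1, which encodes the long double-stranded RNA sensor MDA5, was at 8.05 and 7.42 at day 0 and at 9.08 and 8.46 at day 15. The day 15 array of each replicate number was higher than its day 0 array by 1.03 in replicate 1 and by 1.04 in replicate 2, and replicate 1 was higher than replicate 2 on both days. The difference was 1.03 ± 0.31 log2 (SE; limma adjusted p = 0.24). Dhx58, which encodes LGP2, a helicase that tunes the other sensors, showed the same order of arrays. It was at 8.91 and 7.63 at day 0 and at 10.08 and 8.98 at day 15, a difference of 1.26 ± 0.52 log2 (SE; limma adjusted p = 0.423) with an interval from −0.03 to 2.54. Leaving out single arrays moved it between 0.62 log2 (without day 0 replicate 2) and 1.89 log2 (without day 0 replicate 1). Ddx58, which encodes RIG-I, the sensor of RNA with a triphosphate end, was at 12.04 and 11.56 at day 0 and at 11.78 and 11.79 at day 15. Here the day 15 arrays lay between the day 0 arrays, and the same held for Eif2ak2, the kinase PKR that stops translation on double-stranded RNA, at 10.80 and 10.31 against 10.66 and 10.52.

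None of the 4 transcription factors passed the limma test without a replicate block. An unadjusted limma p below 0.05 was found for 2 of them, against 2425 of all 19938 genes. Irf7, the factor that amplifies interferon production, was at 8.77 and 8.13 at day 0 and at 10.11 and 9.28 at day 15. The days did not overlap, and replicate 1 was the higher array on each day. The difference was 1.25 ± 0.35 log2 (SE; limma adjusted p = 0.217). Irf9, the DNA-binding subunit of ISGF3, was at 10.73 and 10.96 at day 0 and at 11.67 and 11.25 at day 15, which is 0.61 ± 0.21 log2 (SE) higher without passing (limma adjusted p = 0.324). Stat2, its partner in ISGF3, was at 9.85 and 9.88 at day 0 and at 10.38 and 9.98 at day 15, with replicate 1 the only array clearly above the rest. Irf1, a factor of the interferon-gamma response, was lower on both day 15 arrays, at 10.41 and 10.42 against 10.79 and 10.61. The test gave −0.28 ± 0.17 log2 (SE; limma adjusted p = 0.638), and a second probe set of Irf1 gave −0.27 log2.

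The members that process and present antigen did not pass, and their differences were all between 0.06 and 0.34 log2. With 1.72% of all genes called, no call among 4 genes is not read as a result. Psmb8 and Psmb9 encode catalytic subunits of the immunoproteasome, Tap1 a subunit of the peptide transporter, and B2m the light chain of MHC class I. Tap1 was at 9.96 and 9.58 at day 0 and at 10.21 and 10.0005 at day 15, and B2m at 13.62 and 13.68 against 13.86 and 13.79. For these 2 genes the days did not overlap, by a small margin, whereas they did for Psmb8 and Psmb9. The 95% intervals of all 4 stayed within 1 log2 of 0. Tap1 and Psmb9 lie head to head, and 275 bases of their promoter windows are shared. The constitutive proteasome subunits Psmb6 and Psmb5, measured for comparison, differed by −0.26 and 0.06 log2.

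The remaining members did not pass either, which with 1.72% of all genes called is not read as a result. Xaf1, a pro-apoptotic partner of an apoptosis inhibitor, was at 10.36 and 10.98 at day 0 and at 11.26 and 11.73 at day 15. The days did not overlap, with replicate 2 the higher array on each day, and the difference was 0.83 ± 0.28 log2 (SE; limma adjusted p = 0.307). Lgals3bp, a secreted glycoprotein that binds galectins, was at 12.17 and 11.86 against 12.57 and 12.47, a difference of 0.51 ± 0.18 log2 (SE; limma adjusted p = 0.357). Parp9, a macrodomain protein of the ADP-ribosyltransferase family, was at 9.56 and 8.84 at day 0 and at 10.38 and 9.57 at day 15, so the lowest day 15 array was level with the highest day 0 array. Its relatives Parp14 and Parp12 differed by 0.23 and −0.03 log2, and their days overlapped. Irgm1, a GTPase that guards against intracellular pathogens, was at 11.60 and 11.81 at day 0 and at 12.09 and 11.53 at day 15, so replicate 1 was higher and replicate 2 lower at day 15. Ifi35, a leucine zipper protein of the interferon response, overlapped at 10.31 and 10.72 against 10.60 and 10.64. Of the 30 members that did not pass, 21 had a 95% interval within 1 log2 of 0 on both sides, and for the other 9 a difference of 1 log2 lay inside the interval.

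**Figure D3:**
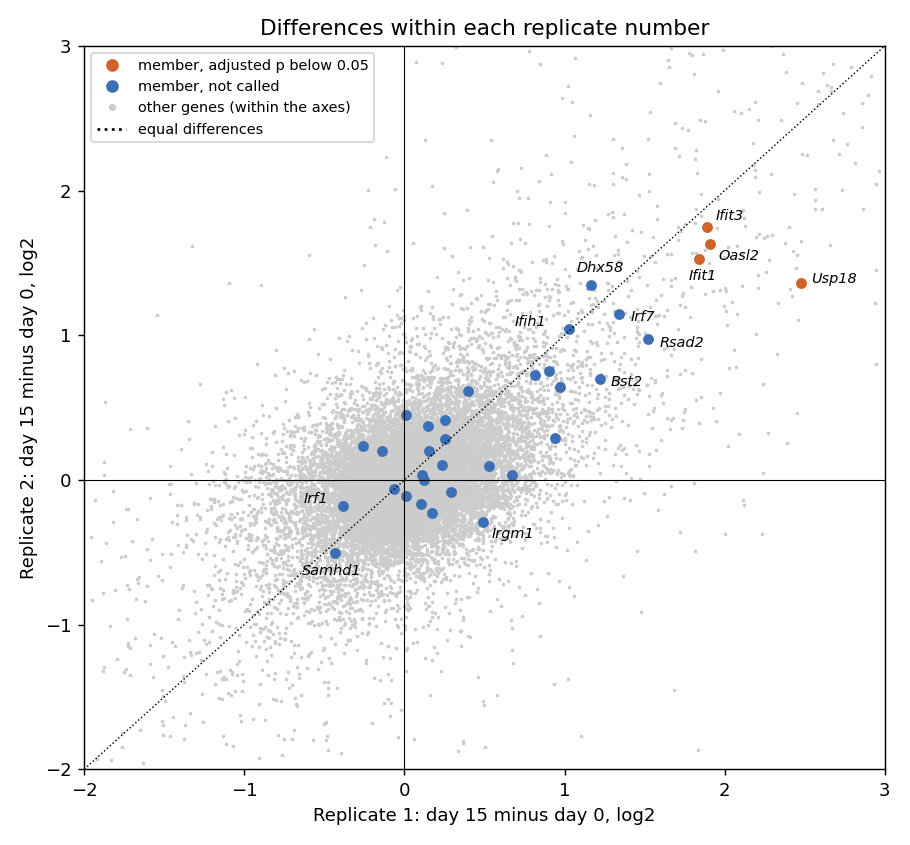
Day 15 minus day 0 within replicate 1 (x axis, log2) against the same within replicate 2 (y axis, log2), with called members in orange, other members in blue, other genes in grey and a dotted line of equal differences. Ifit3, Oasl2 and Ifit1 lie near the dotted line at 1.53 to 1.91 log2 on both axes, Usp18 lies below it, and Irgm1 has opposite signs.

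Within the replicate numbers, 24 of the 34 members were higher at day 15 in both (70.6%), against 34.1% of all genes. Samhd1, Irf1 and Isg20 were lower in both (8.82%), against 28.3% of all genes. A difference of at least 1 log2 was seen for 9 members in replicate 1 (26.5%, against 3.39% of all genes) and for 7 in replicate 2 (20.6%, against 3.04%). The 7 were at or above 1 log2 in both numbers, as were 1.86% of all genes, and comprised Ifit1, Ifit3, Oasl2, Usp18, Dhx58, Ifih1 and Irf7. No member was at least 1 log2 lower in both, against 0.647% of all genes. Rsad2 (1.52 and 0.97 log2) and Bst2 (1.22 and 0.70) reached it in replicate 1 only. In replicate 2 the summed intensity of the macrophage and leukocyte markers was also higher at day 15 (5725 against 4185), with 4 of 21 markers higher by at least 1 log2. These were Laptm5 (2.01 log2), Lyz2 (1.51), Cd68 (1.15) and Fcer1g (1.07), and their part in the members' differences was not tested. In that replicate Ifit3 was higher at day 15 by 1.75, Oasl2 by 1.63, Ifit1 by 1.53 and Usp18 by 1.36 log2. In replicate 1 the corresponding differences were 1.89, 1.91, 1.84 and 2.48 log2.

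The members also differed between the replicate numbers. Replicate 1 was the higher array on both days for 16 members (47.1%, against 34.1% of all genes) and replicate 2 for 8 (23.5%, against 28.5%). For Dhx58, Ifih1, Irf7 and Parp9 replicate 1 exceeded replicate 2 by 0.5 log2 or more at day 0 and at day 15 (11.8% of members, against 2.45% of all genes). For Dhx58 this offset was 1.28 log2 at day 0 and 1.10 at day 15. For Oasl1 replicate 2 exceeded replicate 1 by that much on both days (2.94%, against 2.16% of all genes). None of the called members had an offset of 0.5 log2 or more in the same direction on both days. The main fit did not pair the arrays, so such an offset widens the SE and works against a call. This absence is therefore not read as a result about the called members. Replicate 1 was still the higher array on both days for Ifit1 (by 0.07 log2 at day 0 and 0.38 at day 15). The same held for Ifit3 (0.13 and 0.27) and Oasl2 (0.13 and 0.41). Usp18 was 0.41 log2 lower in replicate 1 at day 0 and 0.71 log2 higher at day 15. Over the 21 macrophage and leukocyte markers the median offset of replicate 1 was 1.90 log2 at day 0 and 1.70 at day 15, and over the members it was 0.04 and 0.21 log2. The part of those markers in the offsets of Dhx58, Ifih1, Irf7 and Parp9 was not tested.

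**Figure D4:**
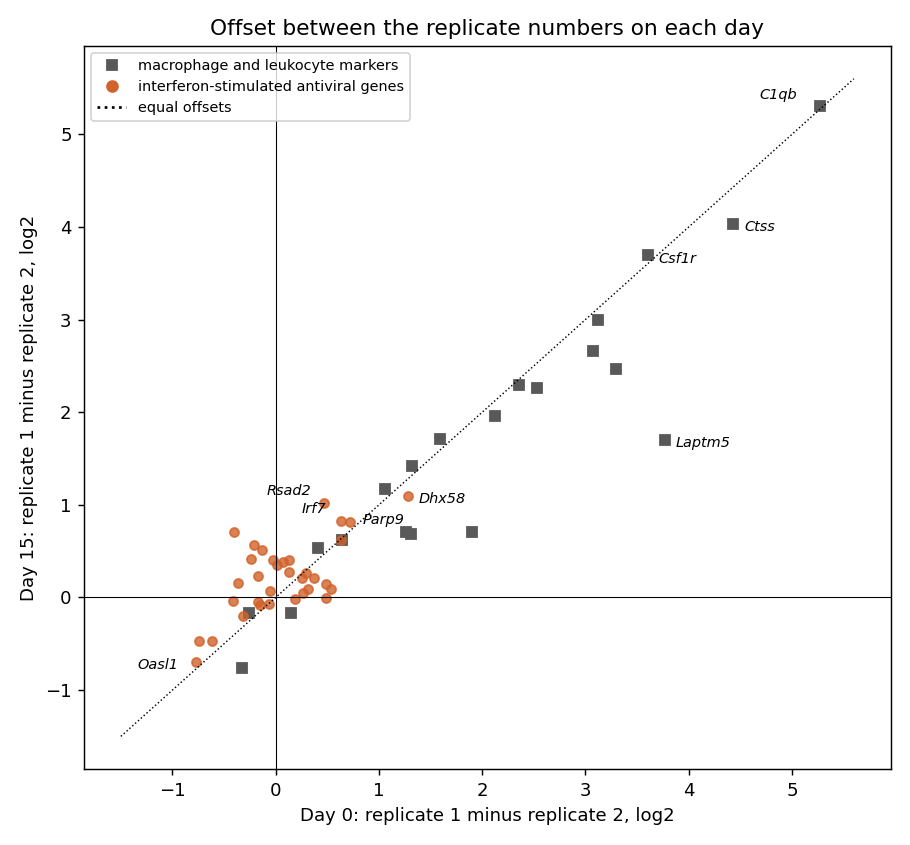
Replicate 1 minus replicate 2 at day 0 (x axis, log2) against the same at day 15 (y axis, log2), with the 34 members as orange circles, 21 macrophage and leukocyte markers as grey squares and a dotted line of equal offsets. C1qb lies at 5.28 and 5.30 log2, whereas the members lie between −0.78 and 1.28 log2, with Dhx58 the farthest out.

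The pathway upstream of the members was compared through lists of other genes. Of 15 measured receptor, kinase and feedback genes none passed the limma test, with 1 at an unadjusted p below 0.05. Their median difference was 0.15 log2. Over all 19938 genes, 342 were called and 2425 had an unadjusted limma p below 0.05. Low counts in these short lists are therefore not read as results. The receptor subunit Ifnar1 differed by 0.19 log2, the kinase Tyk2 by −0.49 ± 0.19 (SE) and the feedback inhibitor Socs3 by 0.41 ± 0.25. Of 14 measured interferon ligand genes none passed and none had an unadjusted limma p below 0.05. Ifnb1, which encodes interferon-beta, was at 6.71 and 6.61 at day 0 and at 6.78 and 6.56 at day 15, so the days overlapped. The ligands with the largest differences were Ifnk (0.40 ± 0.18 log2, SE) and Ifng (0.26 ± 0.18). No detection call was available, so these values may lie at background and do not say whether an interferon gene was expressed. None of 8 other genes of the interferon regulatory factor family and its binding partners passed the limma test or had an unadjusted p below 0.05, with Irf5 at −0.32 and Irf2bp2 at 0.28 log2.

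Adaptors and kinases of nucleic acid sensing included no called gene among 18 measured, with 3 at an unadjusted limma p below 0.05. Over all 19938 genes, 342 were called and 2425 had such an unadjusted p. The counts of the list are too near these shares to be read as a result. The 2 largest differences were those of Tlr3, the endosomal receptor of double-stranded RNA, and Sting1, the adaptor of DNA sensing. Tlr3 was at 9.98 and 10.59 at day 0 and at 11.44 and 11.52 at day 15. Its day 15 arrays were both high, 1.19 ± 0.24 log2 (SE) above day 0 on average, which missed the threshold (limma adjusted p = 0.106). Sting1 was at 9.09 and 8.26 at day 0 and at 10.12 and 9.48 at day 15, a difference of 1.13 ± 0.35 log2 (SE; limma adjusted p = 0.259). Its replicate 1 arrays were the higher ones on both days.

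Among 47 other interferon-stimulated genes 1 was called higher and none was called lower. Their median difference was 0.29 log2, the same as that of the members to this precision. Of all genes 1.30% were called higher, and 1 call among 47 is too near that share to be read as a result about the list. Ifi203, a nuclear DNA-binding protein of the HIN family, rose 4.49-fold (2.17 ± 0.22 log2, SE; limma adjusted p = 0.0132), from 8.79 and 8.45 at day 0 to 10.98 and 10.59 at day 15. It was higher by 2.19 log2 in replicate 1 and by 2.14 in replicate 2. Ifit3b, the copy of Ifit3, was at 6.95 and 6.004 at day 0 and at 10.20 and 8.32 at day 15. Its day 15 arrays lay 1.89 log2 apart, and a difference as large as 2.78 ± 0.64 log2 (SE) was not called (limma adjusted p = 0.144). Trim30a, an inducible TRIM protein, was at 8.23 and 8.21 at day 0 and at 11.18 and 9.66 at day 15, with 1.52 log2 between the day 15 arrays (2.20 ± 0.47 log2, SE; limma adjusted p = 0.122). Both day 15 arrays were above both day 0 arrays for 22 of the 47 (against 22.3% of all genes) and below for 3 (against 17.8%). Ifi203 belongs to a family of similar genes, and whether its probe set tells them apart was not examined. Of 15 measured genes of MHC class I and peptide loading none passed the limma test or had an unadjusted p below 0.05. Of all 19938 genes, 2425 had such an unadjusted p. The median of the list was 0.03 log2. H2-Q4, a class I heavy chain, differed by 0.52 ± 0.24 log2 (SE), and Erap1, which trims peptides, by −0.53 ± 0.25.

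**Figure D5:**
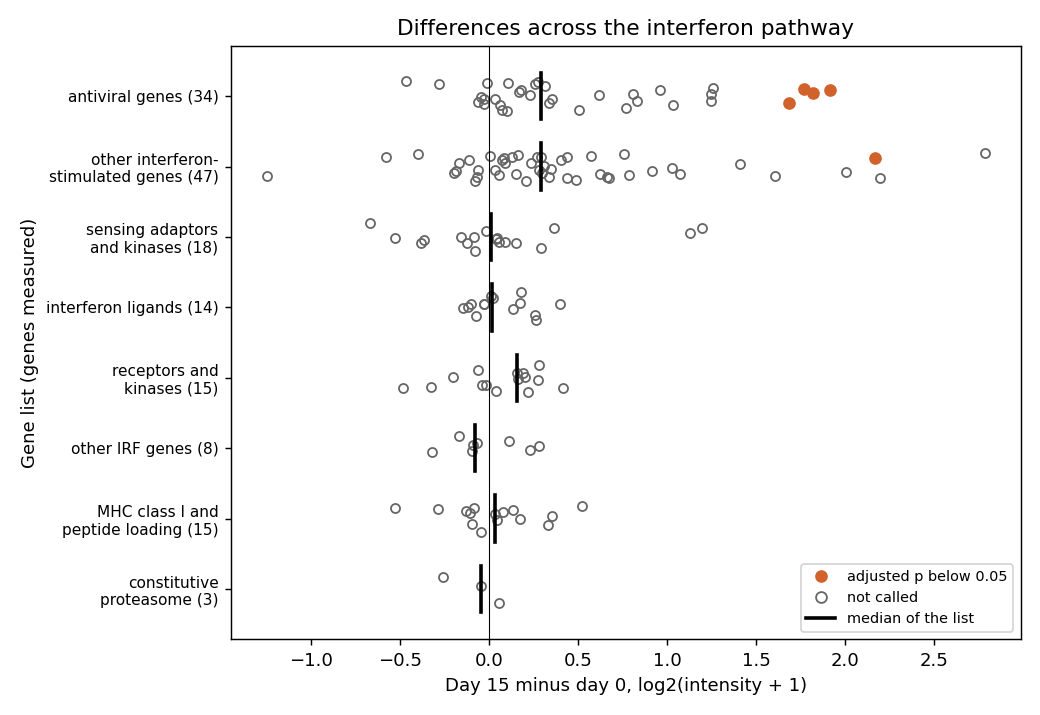
Day 15 minus day 0 in log2(intensity + 1) (x axis) for the members and 7 lists of the interferon pathway (y axis, with the number of genes measured), with called genes filled, other genes open and the median of each list as a bar. The medians of the antiviral genes and of the other interferon-stimulated genes lie at 0.29 log2, and those of the other lists between −0.08 and 0.15 log2.

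The calls of the members depended on single arrays. Of 34 members 4 were called without day 15 replicate 2, 3 without day 0 replicate 1 (Usp18 was lost; limma adjusted p = 0.0929), 1 without day 0 replicate 2 (Ifit3) and none without day 15 replicate 1, where the limma adjusted p was 0.0513 for Ifit3, 0.0643 for Oasl2, 0.0687 for Ifit1 and 0.106 for Usp18. These fits take the spread from the day that keeps its pair and assume it for the single array, and the differences of the 4 genes stayed between 1.49 and 2.28 log2.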

How the data were processed

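Total RNA of 4 ATDC5 samples was labelled with biotin and hybridised to 1-colour whole-transcript arrays, per the labels. The authors deposited 1 linear intensity per probe set and array for 35512 probe sets, but the sources used here do not give their background correction, summarization or normalization. The build was mm9, per the submitters' processing notes. The platform annotation gave 1 symbol for 21789 probe sets, several for 1621 and none for 12102, and only the first kind was used, the brightest per gene. Intensities were turned to log2 after adding 1 and quantile normalized over all probe sets. A log2 difference on this scale understates the change of dim genes, and no detection call was used. limma 3.58.1 in R 4.3.3 (lmFit, eBayes, group as the only term, all 4 arrays) tested day 15 against day 0, with p-values adjusted over all 19938 genes by Benjamini-Hochberg, and 0.05 was the threshold of a call. SD is the spread of 2 arrays and SE is limma's moderated standard error. Promoter windows are those of RefSeq. Windows were searched in Python 3.11.15, and matplotlib 3.10.9 drew the figures.

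All members are named. In each other list the called genes are named and, if there were fewer than 2, the 2 genes farthest from 0. Ifnar1, Ifnb1, C1qb, Laptm5, Lyz2, Fcer1g, Oas1b, Oas1c, Oas3, Cmpk2, Iigp1, Rtp4, Tor3a and Ccl5 were named outside this rule, with their values known. The members and lists were chosen with earlier results of these data known. Alternatives were other scalings (deposited, median centring, quantile normalization over named probe sets), a trend and robust variance model, a block for the replicate number, a filter that drops genes under the median level, averaged probe sets, a pseudocount of 16 and leaving out each array. Differences within each replicate number were added after the markers of macrophages had been seen.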

Additional observations from a re-analysis of the deposited data

How the results depend on the processing

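Among 8 settings that kept all arrays, 4 members were called with limma under each except median centring, where Usp18 was lost (adjusted p = 0.0512) and 3 were called, and the replicate block. The labels state no shared batch behind the replicate numbers, and there are only 2 pairs, so the main fit did not pair the arrays. Same-numbered arrays did deviate together (r = 0.40 across 19938 genes, which are not independent replicates). Of 21 macrophage and leukocyte markers, 18 were higher in replicate 1 on both days, against 34.1% of all genes. What the replicate numbers stand for is not known. With the replicate block 8 members were called (adding Dhx58, Ifih1, Irf7 and Rsad2) and 628 of 19938 genes in all, 440 higher and 188 lower. When each array was left out in turn, 0 to 4 members, 174 to 282 genes, 145 to 219 higher and 29 to 63 lower were called. The median difference of the members was 0.36 log2 on the deposited scaling and 0.22 to 0.43 with an array left out. Calls of other interferon-stimulated genes ran from 1 to 6.

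Some uncalled members changed sign. On the deposited scaling these were Ddx58 (0.010 log2), Oas2 (0.0095) and Parp12 (0.033). With an array left out the differences ran from −0.25 to 0.23 for Ddx58, −0.21 to 0.27 for Eif2ak2, −0.14 to 0.037 for Mx1, −0.14 to 0.085 for Oas2, −0.32 to 0.46 for Oasl1, −0.18 to 0.38 for Irgm1, −0.40 to 0.34 for Parp12, −0.035 to 0.50 for Parp14, −0.094 to 0.22 for Psmb8 and −0.10 to 0.31 for Ifi35. With no change of sign, it moved Dhx58 from 0.62 to 1.89, Rsad2 from 0.73 to 1.75, Irf7 from 0.81 to 1.68, Parp9 from 0.36 to 1.19, Xaf1 from 0.52 to 1.13 and Irf9 from 0.40 to 0.83 log2. The cause of these changes was not tested. No member was called lower in any of these fits. Of the 34 members 25 were kept by the filter on dim genes. The dim members that it dropped were Ifih1, Mx1, Mx2, Oas1a, Oas2, Oasl1, Rsad2, Parp12 and Parp14. How far these members stand above background is unknown, because signal over background was not given.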

Other observations

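Further interferon-stimulated genes outside the member list had differences above 1 log2 and an adjusted p between 0.05 and 0.1. Cmpk2, a mitochondrial nucleotide kinase gene that neighbours Rsad2, was at 7.002 and 6.54 at day 0 and at 8.64 and 8.11 at day 15. The day 15 arrays were the high ones, with differences of 1.64 log2 in replicate 1 and 1.56 in replicate 2 (limma adjusted p = 0.0537). Iigp1, an immunity-related GTPase, differed by 2.01 ± 0.33 log2 (SE; limma adjusted p = 0.0554). Rtp4, a transporter-like protein, differed by 1.41 ± 0.24 log2 (SE; limma adjusted p = 0.066), and Tor3a, an inducible ATPase, by 1.07 ± 0.21 (limma adjusted p = 0.093). For Cmpk2, Iigp1, Rtp4 and Tor3a both day 15 arrays lay above both day 0 arrays. Ccl5, a chemokine of the same list, went the other way, from 11.68 and 11.04 at day 0 to 10.38 and 9.84 at day 15 (−1.25 ± 0.29 log2, SE; limma adjusted p = 0.15, not called). These 5 genes were chosen after their values were seen.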
